A study of Rattus norvegicus with 16 samples.

Results

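Bone samples of the rat strains Fischer 344 (F344) and Lewis (LEW) were set, as a pair, against those of the strains Copenhagen 2331 (COP) and Dark Agouti (DA). All are inbred strains, and the animals were 4 weeks old. RNA was taken from the proximal femur (the hip end of the thigh bone) and was hybridised to 16 Affymetrix arrays, 4 per strain, so that 8 arrays stood on each side and every array of the series was used. No treatment or allele beyond the strain itself was given in the labels, and neither was the sex. The deposited design concerns a locus on chromosome 4 found in a cross of F344 with LEW, and the comparison of strain pairs was made here to describe genes in which F344 and LEW lie together on one side and COP and DA together on the other.

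Genes were chosen by separation: all 8 values of F344 and LEW above all 8 values of COP and DA, or all 8 below. Of 18625 probe sets bright enough to test, 355 were separated (1.91%), 151 of them higher and 204 lower in F344 and LEW. Without the filter on dim probe sets 385 were separated. The limma contrast of the pair means called 3149 of the 18625 probe sets at the 0.05 level of adjusted p (16.9%), with 1406 higher and 1743 lower, and 353 of the 355 separated ones were among them. Represented by its brightest probe set, a gene was both separated and called in 212 of 10548 cases (2.01%), with 82 higher in F344 and LEW (0.777%) and 130 lower (1.23%). Among genes called regardless of separation, which numbered 1829 (17.3%), 813 were higher (7.71%) and 1016 lower (9.63%). Since the separation and the contrast use the same values, the p-values printed for separated genes describe the size of a difference against its spread and are no second line of evidence.

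The femur end of a young rat contains growth plate cartilage, trabecular and cortical bone, and marrow in which neutrophils, eosinophils, B cells, megakaryocytes and red cell precursors are made, so its RNA is a mixture of skeletal and blood-forming cells. Inbred strains are fixed for different alleles across the genome, and each strain pair therefore shares alleles at some loci by descent or by chance. The RT1 complex on rat chromosome 20, which encodes the proteins that present peptides to T cells, is among the most variable of these loci.

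Defining genes of bone and cartilage were high, and so were those of skeletal muscle. The osteoblast protein osteocalcin (Bglap) had signals of 48771 to 58170 in F344 and LEW, against 50523 to 63221 in COP and DA, and the cartilage collagen Col2a1 had 49525 to 58654 in F344 and LEW, against 47470.2 to 61920.3 in COP and DA. Acta1, actin of skeletal muscle, had 51692 to 57599.7 in F344 and LEW, against 53024 to 72850.3 in COP and DA, and muscle creatine kinase (Ckm) had 39623 to 53462 in F344 and LEW, against 31013 to 50178 in COP and DA. Both muscle genes overlapped between the sides, and the part of muscle in the differences below was not tested. Liver albumin (Alb) had at most 115 in F344 and LEW, against at most 141 in COP and DA, and the neuronal gene Snap25 at most 82.6 in F344 and LEW, against at most 43.0 in COP and DA. Array medians lay between 303 and 325, and every array had a 2% trimmed mean of about 1000. Precision is limited by how many arrays there were. Nothing in the labels says that each replicate was its own animal, so a p-value here reflects only the spread between samples of a strain, which may be technical. In bulk tissue, fewer cells of a type and less RNA per cell cannot be told apart.

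Most separated genes differed modestly. Their median absolute log2 difference was 0.51, against 0.10 over all tested genes, and 31 of the 212 differed 2-fold or more, 13 higher and 18 lower in F344 and LEW. The higher genes had a median difference of 0.44 and the lower ones of -0.53, where the median over all genes was -0.0046. A gap, the log2 distance between the nearest arrays of the 2 sides, had a median of 0.090, and 46 genes had a gap of at least 0.25. At the edge of the rule, the genes just inside were Zfp217, Kank1 and Bbip1 with gaps of 0.00096, 0.0014 and 0.0017, and those just outside were Rpl39l1, Cfp and Npc2 with negative gaps of -6.09e-05, -0.0011 and -0.0021. Within the pairs, 19 of the 212 genes (8.96%) differed between F344 and LEW, against 14.5% of all tested genes. Between COP and DA 33 differed (15.6%), against 12.2% of all tested genes. In 165 of the 212 genes limma called a difference within neither pair, and in 5 within both. The rule that chose the 212 used the values behind these shares and the median differences, so they only describe the choice.

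**Figure D1:**
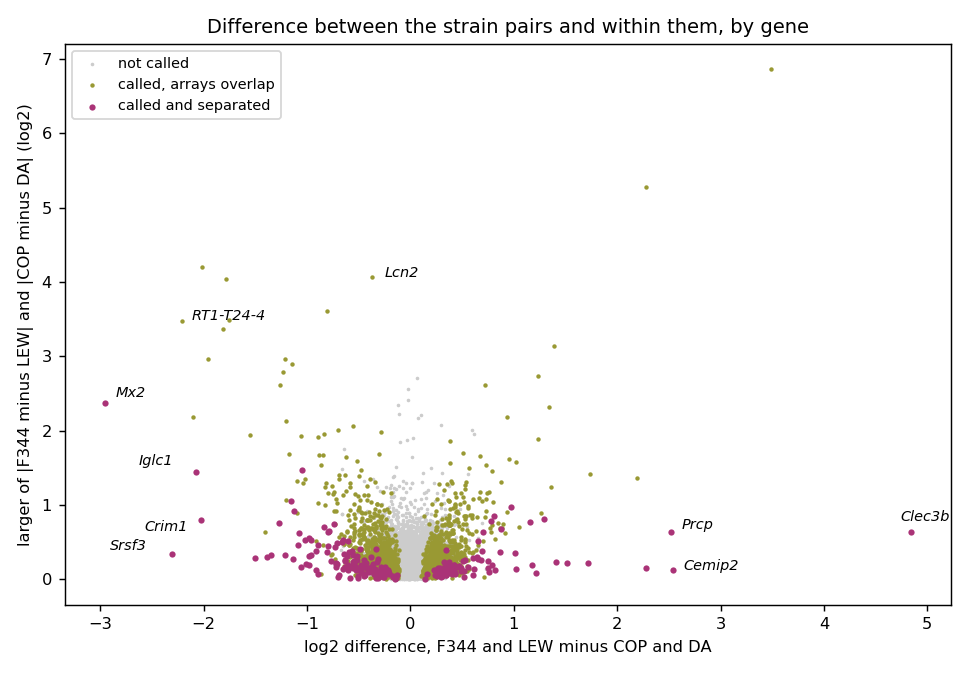
Each point is a tested gene; the horizontal axis is the log2 difference of F344 and LEW minus COP and DA, and the vertical axis is the larger of the absolute log2 differences between F344 and LEW and between COP and DA. Separated genes lie from near 0 up to Mx2, at 2.38 on the vertical axis, with Clec3b (4.84 on the horizontal axis) and Srsf3 (-2.30) below 1; Lcn2 and RT1-T24-4, called but overlapping, lie higher still.

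The comparison has few strains. With 2 strains on a side, an exact two-sided permutation test of the strain means cannot go below p = 0.3333. When the 4 strain means were taken as the samples, an alternative added after the data were seen, 14 probe sets were called and 5 of the 212 genes remained: Clec3b, Cemip2, Ephx2, Glrx2 and Srsf3, with adjusted p of 0.0296 to 0.0423 by limma. With strain as a random block, for which the estimated correlation of arrays within a strain was 0.252, 389 probe sets were called and 165 of the 212 genes remained, 64 higher and 101 lower. The calls below, unless stated otherwise, compare these 4 strains with the spread between arrays of a strain.

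Ranked by the narrowest of the 4 differences of strain means across the sides, the first gene was Clec3b (4.44), which encodes tetranectin, a plasminogen-binding lectin found in plasma and in mineralising bone. Its lowest, median and highest signals were 803, 976 and 1150.0 in F344 and LEW, against 10.7, 33.1 and 92.1 in COP and DA. No array of COP or DA came near the lowest F344 or LEW array, and all COP and DA arrays were below 174, the signal of the filter. The difference was 4.84 on the log2 scale (SE 0.33, limma adjusted p = 9.02e-10). F344 and LEW, at 1015 ± 91.3 and 905 ± 105 (SD, n = 4 each), were not called different from each other (adjusted p = 0.86, limma).

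Cemip2, a membrane protein described in mouse as a hyaluronidase of the cell surface, had 440.3, 532 and 648 (lowest, median, highest) in F344 and LEW, against 45.4, 102 and 136 in COP and DA, a difference of 2.54 (SE 0.19, limma adjusted p = 5.32e-09). Ephx2, soluble epoxide hydrolase, which breaks down fatty acid epoxides, had 501, 734 and 817 in F344 and LEW, against 103, 140.3 and 235 in COP and DA, a difference of 2.28 (SE 0.16, limma adjusted p = 9.47e-10). Prcp, a lysosomal carboxypeptidase that can cleave angiotensin II, had 808, 1259 and 1645 in F344 and LEW, against 127, 256 and 324 in COP and DA, a difference of 2.52 (SE 0.18, limma adjusted p = 1.95e-09). In all 3 genes the sides were far from overlap, and limma called no difference within either pair. In Prcp, however, every F344 array (1368 to 1645) lay above every LEW array (808 to 1150), a difference of 0.63 (limma adjusted p = 0.113). Glrx2, a mitochondrial glutaredoxin, had the smallest spread of the group, with 5306, 5613 and 6091 in F344 and LEW, against 2249, 2452 and 2555 in COP and DA. That difference was 1.21 (SE 0.041, limma adjusted p = 1.22e-14), but the other kept probe set of Glrx2 showed 612 to 1178 in F344 and LEW, against 497 to 1232 in COP and DA, a difference of 0.15 (adjusted p = 0.566).

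Further leading genes were higher in F344 and LEW. Shld1, part of the shieldin complex that protects broken DNA ends, differed by 1.72 and Cenpt, a kinetochore protein that joins centromeres to microtubules, by 1.41. Art4, an ADP-ribosyltransferase that carries the Dombrock blood group in humans, differed by 1.17, the class I myosin Myo1e by 1.02, and Rufy1, an endosomal effector of Rab proteins, by 0.76. Urah, an enzyme of urate breakdown, was higher by 1.29, and COP and DA differed in it, with 1541 ± 234 in COP and 887 ± 184 in DA (SD, n = 4 each, limma adjusted p = 0.000343). Cdkn1a, which encodes the cell cycle inhibitor p21, had 1143, 1334 and 1463 in F344 and LEW, against 598, 719 and 970.3 in COP and DA, a difference of 0.82 (SE 0.1, limma adjusted p = 5.16e-06).

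**Figure D2:**
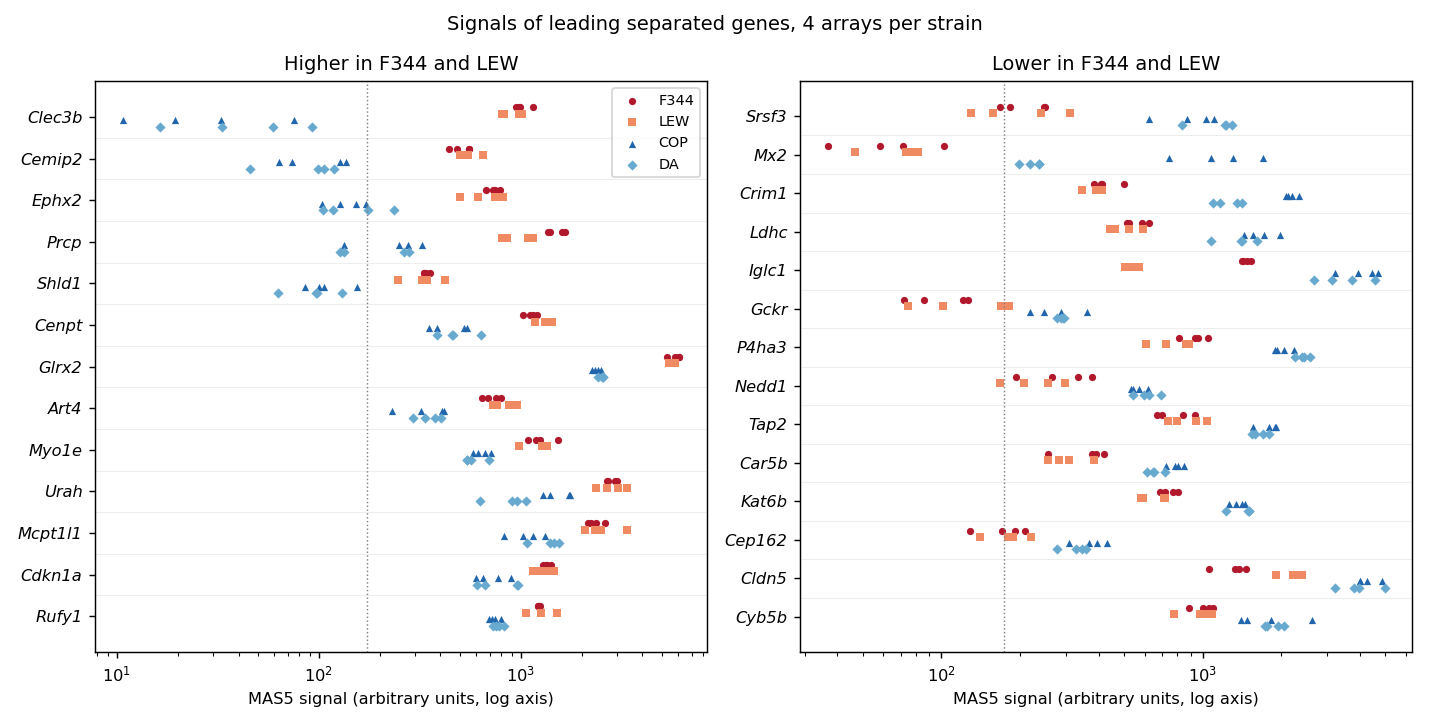
MAS5 signals on a log axis for leading genes higher (left panel, 13 genes) and lower (right panel, 14 genes) in F344 and LEW, with 1 point per array, coloured by strain; the dotted line marks the filter at a signal of 174. For each gene no point of F344 or LEW overlaps one of COP or DA. Clec3b, for instance, has 803 to 1150.0 in F344 and LEW and 10.7 to 92.1 in COP and DA. In Prcp, Urah, Iglc1, Mx2, Crim1, P4ha3, Car5b and Cldn5 the arrays of the strains of one side also lie apart.

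On the lower side the first gene by the same rank was Srsf3 (narrowest difference -2.09), a serine and arginine-rich splicing factor, although Mx2 had a larger difference of pair means. Srsf3 had 129.6, 211 and 309.8 in F344 and LEW, against 624, 1065 and 1291 in COP and DA. The sides were apart on every array, and the difference was -2.30 (SE 0.17, limma adjusted p = 2.27e-09). Srsf3 and Cdkn1a were next to each other among tested genes of chromosome 20 and differed in opposite directions. Crim1, a membrane protein that binds bone morphogenetic proteins, had 346, 409 and 499 in F344 and LEW, against 1091, 1748 and 2342 in COP and DA, a difference of -2.02 (SE 0.073, limma adjusted p = 3.05e-14). Its COP arrays (2184 ± 117, SD, n = 4) lay above its DA arrays (1256 ± 154, SD, n = 4), so that the upper side was itself split. P4ha3, an alpha subunit of the prolyl hydroxylase that modifies collagen, had 605, 874 and 1053 in F344 and LEW, against 1891, 2251 and 2585 in COP and DA, a difference of -1.39 (SE 0.076, limma adjusted p = 2.82e-11).

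Ldhc, a lactate dehydrogenase known from testis, differed by -1.51, the glucokinase regulator Gckr by -1.35, the mitochondrial carbonic anhydrase Car5b by -1.13 and Cyb5b, a cytochrome b5 of the outer mitochondrial membrane, by -0.89. The centrosome and cilium proteins Nedd1 and Cep162 differed by -1.21 and -0.98. Cldn5, a claudin of endothelial tight junctions, had 1059, 1691 and 2409 in F344 and LEW, against 3200.1, 3997 and 4969 in COP and DA, a difference of -1.27 (SE 0.082, limma adjusted p = 3.54e-10). F344 was lower than LEW in Cldn5 (-0.76, limma adjusted p = 9.38e-05), yet both lay below COP and DA. Kat6b, a histone acetyltransferase, differed by -1.01 in its brighter probe set and by -0.03 in the other (limma adjusted p = 0.833). Car5b, in contrast, was separated in both of its probe sets, by -1.13 and -0.89. Cyb5b was not, its other probe set showing 0.16 (limma adjusted p = 0.131).

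Iglc1 and Mx2 were separated although the strains within a side were unequal. Iglc1, a constant region of the immunoglobulin lambda light chain, had 1459.5 ± 52.4 in F344 and 538 ± 30.6 in LEW, against 4068 ± 653 in COP and 3520.0 ± 815 in DA (SD, n = 4 each). F344 and LEW differed in it by 1.44 (limma adjusted p = 5.41e-08). Mx2, a GTPase induced by interferon, had 67.3 ± 27.4 in F344 and 69.2 ± 15.3 in LEW, against 1205 ± 399 in COP and 222 ± 18.4 in DA (SD, n = 4 each). Its difference of -2.95 averaged unequal strains, since COP exceeded DA by 2.38 (limma adjusted p = 4.72e-06).

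Among granule genes, Prg2 and Epx of eosinophils and Cpa3 of mast cells were separated, in opposite directions. Prg2, major basic protein of eosinophils, had 13807, 17232 and 19431 in F344 and LEW, against 26462, 34593 and 40082 in COP and DA, a difference of -0.98 (SE 0.064, limma adjusted p = 4.21e-10). Epx, eosinophil peroxidase, had 4081, 5813 and 6871 in F344 and LEW, against 7247, 12812 and 17725 in COP and DA, a difference of -1.13 (SE 0.088, limma adjusted p = 7.39e-09). Both sets of arrays were apart, and COP exceeded DA by 0.31 in Prg2 (limma adjusted p = 0.026) and by 0.92 in Epx. Of mast cell proteases, Cpa3, Mcpt1l1 and Cma1 were separated in the other direction. Cpa3, mast cell carboxypeptidase A, had 1156, 1537 and 1686 in F344 and LEW, against 742, 855 and 991 in COP and DA, a difference of 0.75 (SE 0.074, limma adjusted p = 2.52e-07). Mcpt1l1, annotated as a mast cell protease 1-like gene, had 2087, 2340.1 and 3341 in F344 and LEW, against 827, 1239 and 1543 in COP and DA, a difference of 1.01 (SE 0.1, limma adjusted p = 2.67e-07). Cma1, a chymase chosen here after its values were seen, had 1116, 1257 and 1837 in F344 and LEW, against 711, 1008 and 1086 in COP and DA, a difference of 0.42 (limma adjusted p = 0.00438). Mast cell chymases are close relatives, and how far one probe set measures another gene of the family was not tested.

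Of 14 tested genes on the list of mast cells, basophils and eosinophils, 4 were called higher (Cpa3, Tpsab1, Tpsb2 and Mcpt8) and 3 lower (Prg2, Epx and Ms4a2), with 1 and 2 of these separated and a median difference of 0.013. Among all tested genes 7.71% were called higher and 9.63% lower, and 2.01% were both separated and called. The tryptases Tpsab1 and Tpsb2 differed by 0.88 and 0.56 and overlapped between the sides. Not called were the mast cell proteases Mcpt1 (0.43), Mcpt10 (0.19) and Mcpt9 (-0.038) and the receptor chain Fcer1a (-0.31), while Ms4a2, another chain of that receptor, was called lower (-0.25). With strain as a random block, 2 genes of the list were called higher and 2 lower.

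The promoters of Epx, Cpa3 and Mcpt1l1, which differed in both directions, are shown because each holds a TATA box letter run. They are RefSeq sequences of the assembly GRCr8, 250 bases before to 50 after the annotated start, on the minus strand at chr10:73175131-73175430, chr2:104673188-104673487 and chr15:33876846-33877145. Capitals mark TATAAA, searched on both strands, which begins 29, 40 and 32 bases before the start in the order of the lines below. The same letters were found in 4760 of 33469 promoters of this length (14.22%).
Epx: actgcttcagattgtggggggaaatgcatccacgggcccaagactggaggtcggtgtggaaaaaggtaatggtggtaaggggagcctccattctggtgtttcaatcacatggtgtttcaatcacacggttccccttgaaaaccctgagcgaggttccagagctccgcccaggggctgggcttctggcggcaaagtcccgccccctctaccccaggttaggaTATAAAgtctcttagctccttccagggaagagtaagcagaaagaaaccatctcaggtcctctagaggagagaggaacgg
Cpa3: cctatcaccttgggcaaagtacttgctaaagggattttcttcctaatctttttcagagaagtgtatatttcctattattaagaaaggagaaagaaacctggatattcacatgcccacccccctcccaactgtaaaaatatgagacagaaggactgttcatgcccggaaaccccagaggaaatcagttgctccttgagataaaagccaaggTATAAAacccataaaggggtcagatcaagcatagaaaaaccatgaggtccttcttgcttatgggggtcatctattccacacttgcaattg
Mcpt1l1: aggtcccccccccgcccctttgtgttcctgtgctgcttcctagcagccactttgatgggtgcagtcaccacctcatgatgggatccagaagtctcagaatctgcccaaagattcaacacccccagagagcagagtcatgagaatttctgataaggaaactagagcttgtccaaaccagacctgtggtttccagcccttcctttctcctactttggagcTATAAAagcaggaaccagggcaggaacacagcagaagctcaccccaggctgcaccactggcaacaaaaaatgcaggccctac

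**Figure D3:**
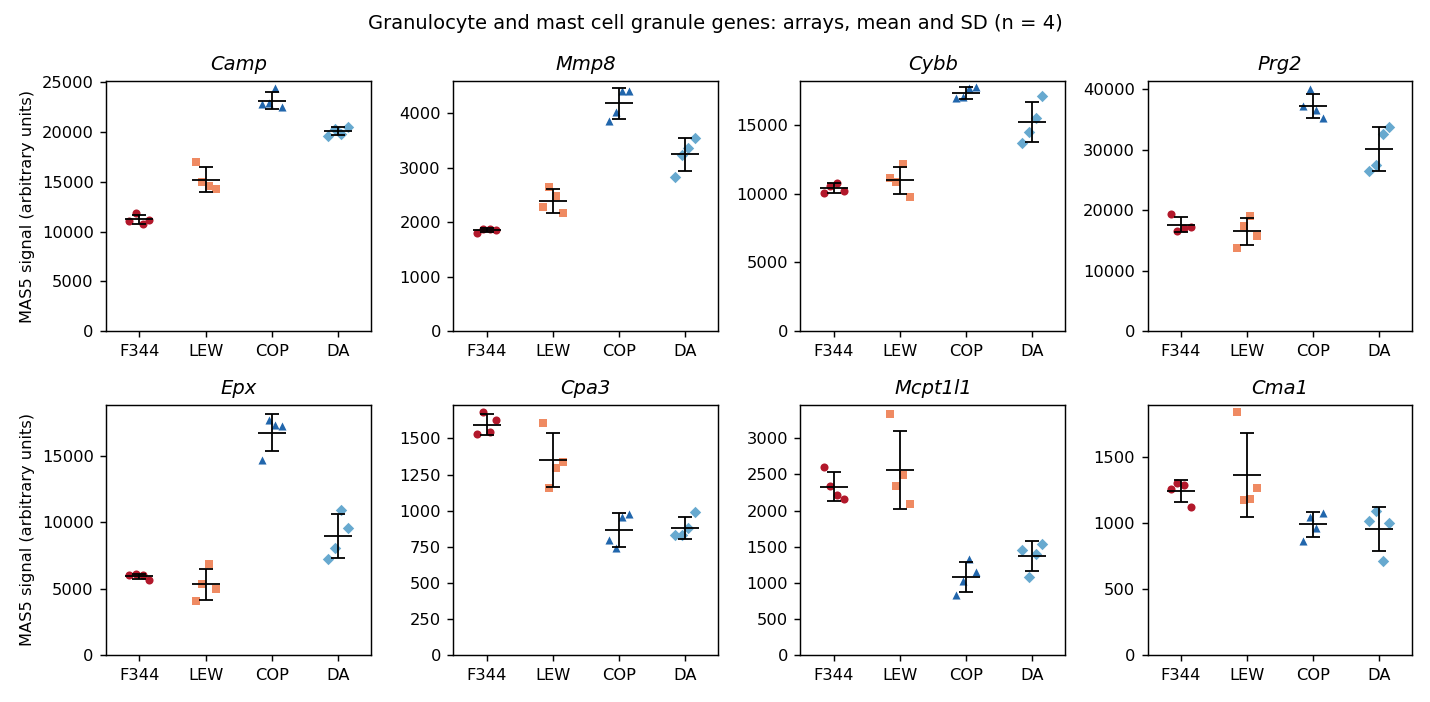
MAS5 signals (arbitrary units, linear axis from 0) of 8 granule genes in F344, LEW, COP and DA, with 1 point per array and the mean with SD of 4 arrays. Camp, Mmp8, Cybb, Prg2 and Epx are lower in F344 and LEW, and Cpa3, Mcpt1l1 and Cma1 are higher.

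Over all tested genes 9.63% were called lower in F344 and LEW and 7.71% higher. Of 16 tested neutrophil granule genes, 12 were called lower and 1, Mmp9 at 0.39, higher, with a median difference of -0.32. With strain as a random block 3 were called lower and 0 higher, and these were the 3 separated members, Camp, Mmp8 and Cybb. Camp, the cathelicidin of secondary granules, had 10756, 13049 and 17026 in F344 and LEW, against 19639, 21522 and 24453 in COP and DA, a difference of -0.73 (SE 0.04, limma adjusted p = 2.82e-11). Mmp8, neutrophil collagenase, had 1804, 2019 and 2643 in F344 and LEW, against 2822, 3699 and 4412 in COP and DA, a difference of -0.81 (SE 0.054, limma adjusted p = 6.4e-10). Cybb, the large subunit of the phagocyte oxidase cytochrome, had 9751, 10677 and 12121 in F344 and LEW, against 13688, 16978 and 17778 in COP and DA, a difference of -0.60 (SE 0.048, limma adjusted p = 9.43e-09). All 3 were separated on every array, and a second probe set of Cybb was separated as well (-0.71). Camp and Mmp8 were lower in F344 than in LEW by 0.44 and 0.36 on the log2 scale. In both, COP was higher than DA, by 0.20 and 0.37 (limma adjusted p = 0.0199 and 0.00257).

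Centred on its mean over all arrays, the neutrophil granule list averaged -0.43 to -0.39 in F344 and -0.056 to 0.055 in LEW, against 0.32 to 0.41 in COP and -0.040 to 0.13 in DA. LEW and DA overlapped, so the list as a whole did not separate the pairs. Lcn2, lipocalin 2 of the same granules, was called (-0.37, limma adjusted p = 5.74e-06) with means of 834 in F344 and 12526 in LEW, against 17160.4 in COP and 1023 in DA, so that its pair means describe no single strain. Of primary granule genes, the defensins Np4, RatNP-3b and Defa5 were called lower by differences of -0.27, -0.17 and -0.16 and Defa7 by -1.22, all overlapping between the sides, and Mpo and Elane had no named probe set. The part of neutrophil number in the differences of separate genes was not tested.

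Several other marrow lists held more lower than higher calls, and of their members 0 of 10, 1 of 15 and 1 of 28 were separated in the B lymphoid, megakaryocyte and interferon lists, where 2.01% of all genes were. Of 10 tested B lymphoid genes, 7 were called lower and 1, Cd22, higher, with a median of -0.29. The centred mean of that list was -0.50 to -0.42 in F344 and 0.20 to 0.31 in LEW, against 0.14 to 0.40 in COP and -0.30 to 0.097 in DA, so that F344 alone lay below all other strains and LEW lay above DA. Of 15 megakaryocyte and platelet genes, 8 were called lower and 2 higher, with a median of -0.29, and the list mean was again low in F344 (-0.27 to -0.24) while LEW (-0.16 to 0.28) overlapped COP (-0.10 to 0.15) and DA (-0.0039 to 0.23). Tubb1, the beta tubulin of platelets, was the one separated member and went against its list, with 3818, 4750.0 and 7098 in F344 and LEW, against 2375, 2997 and 3676 in COP and DA, a difference of 0.70 (SE 0.067, limma adjusted p = 1.51e-07). Its gap was 0.055, and F344 was lower than LEW in it (-0.63, limma adjusted p = 7.31e-05). Of 28 interferon response genes, 12 were called lower and 1 higher, with a median of -0.19 and Mx2 as the one separated. Here the list mean was low in LEW (-0.51 to -0.30) but not in F344 (-0.0046 to 0.078), against 0.12 to 0.54 in COP and -0.083 to 0.13 in DA. With strain as a random block the B lymphoid, megakaryocyte and interferon lists had 0, 0 and 3 members called lower. Among 19 monocyte and macrophage genes, 4 were lower and 2 higher, and Fcgr2b, an inhibitory receptor for immunoglobulin G, was separated (-0.79), with COP above DA by 0.65. Of 9 T and natural killer cell genes 3 were lower and 1 higher, and of 25 erythroid genes 1 was lower and 3 higher. Fcgr2b was the one gene of these last 3 lists still called with strain as a random block.

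**Figure D4:**
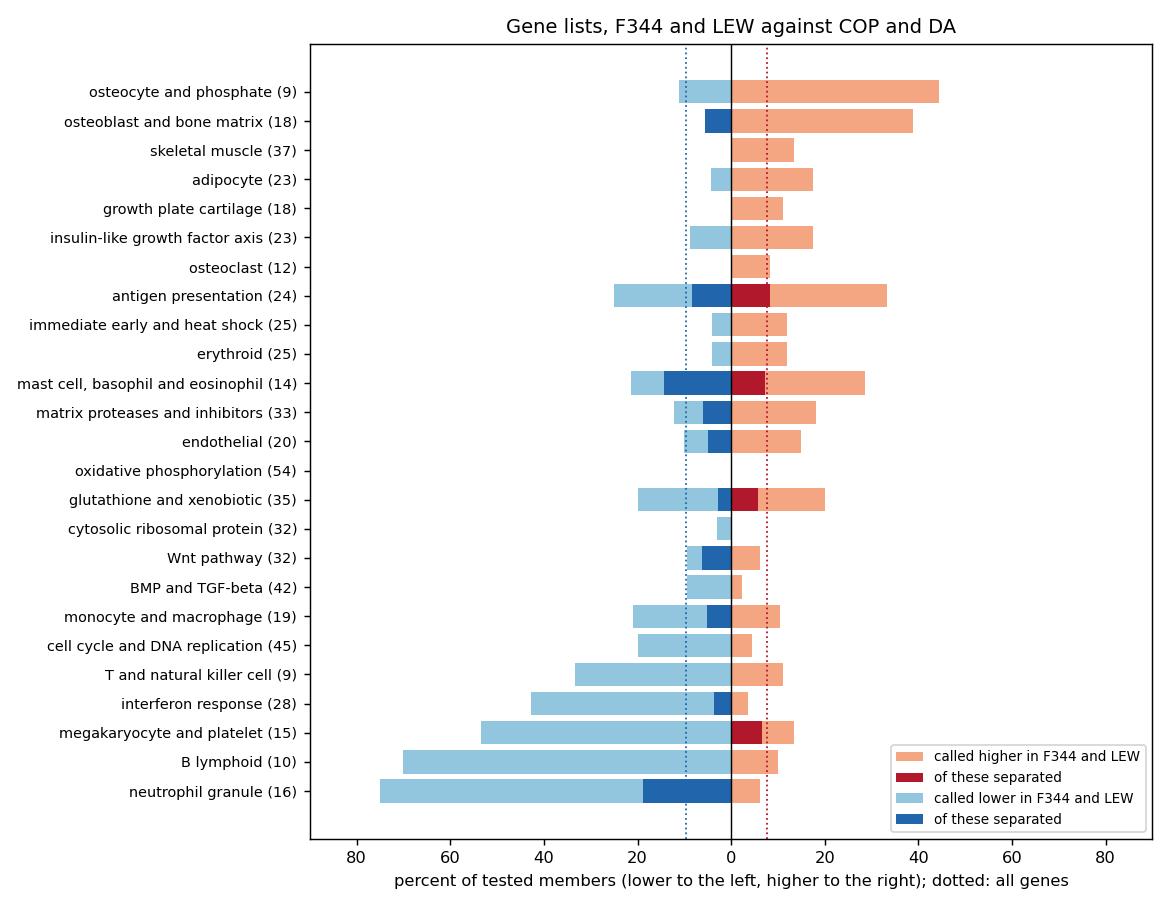
Percent of the tested members of each gene list that limma called higher (right of 0) or lower (left of 0) in F344 and LEW, with the number tested in brackets; dark parts are separated members and dotted lines the shares over all genes (7.71% higher, 9.63% lower). Of neutrophil granule genes 12 of 16 were lower, and of antigen presentation genes 8 of 24 were higher and 6 lower.

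Genes that present antigen differed in both directions. Tap2, a subunit of the transporter that carries peptides to class I molecules, had 666, 819 and 1040.2 in F344 and LEW, against 1547, 1746 and 1913 in COP and DA, a difference of -1.06 (SE 0.082, limma adjusted p = 6.72e-09). Psmb9, a subunit of the immunoproteasome, had 1652, 1964 and 2484 in F344 and LEW, against 2558, 2874 and 3188 in COP and DA, a difference of -0.56 (SE 0.048, limma adjusted p = 2.79e-08). F344 was higher than LEW in Psmb9 (0.39, limma adjusted p = 0.000416). The sides did not overlap for either gene of the class I route. RT1-DMa and RT1-DMb, the chains of the chaperone that loads peptides on class II molecules, were higher in F344 and LEW. RT1-DMa had 881, 1011 and 1212 in F344 and LEW, against 674, 779 and 845 in COP and DA, a difference of 0.42 (SE 0.066, limma adjusted p = 9.97e-05). RT1-DMb had 2048, 2355 and 2434 in F344 and LEW, against 1047, 1695 and 1824 in COP and DA, a difference of 0.61 (SE 0.1, limma adjusted p = 0.00022). These 4 genes lay within 6 consecutive tested genes of chromosome 20.

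Of 24 tested antigen presentation genes, 8 were called higher and 6 lower (58.3%, against 17.3% of all tested genes), with a median of 0.034. With strain as a random block 4 were higher and 4 lower. The class II genes RT1-Ba, RT1-Bb, RT1-Da and RT1-Db1 were called higher, by 1.36, 0.93, 0.73 and 0.60, but overlapped. RT1-Ba, chosen after its values were seen, averaged 2154 in F344 and 909 in LEW, against 419.7 in COP and 753 in DA. RT1-T24-4, a class I gene, was called lower (-1.81) with LEW alone at a low level, at means of 2679 in F344 and 269 in LEW, against 2948 in COP and 2976 in DA. Other class I genes were called in both directions and overlapped. RT1-CE5 (1.34) and RT1-A (0.72) were higher, and RT1-CE16 (-1.15) and RT1-CE10 (-0.60) were lower. Of the class I route, Psmb8 was called lower (-0.42) and overlapped. Not called were Tap1 (-0.026), Tapbp (-0.13), Psmb10 (-0.11) and B2m (-0.0085). Alleles of RT1 genes vary in sequence between rat strains, and how well each probe set matches each strain's allele was not tested.

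The promoter of RT1-DMa is shown because class II genes are known for a Y box, whose core reads GATTGG. It is the RefSeq GRCr8 sequence on the minus strand at chr20:4712286-4712585, with the motif in capitals 65 bases before the start. GATTGG, searched on both strands, was found in 4956 of 33469 promoters (14.81%).
RT1-DMa: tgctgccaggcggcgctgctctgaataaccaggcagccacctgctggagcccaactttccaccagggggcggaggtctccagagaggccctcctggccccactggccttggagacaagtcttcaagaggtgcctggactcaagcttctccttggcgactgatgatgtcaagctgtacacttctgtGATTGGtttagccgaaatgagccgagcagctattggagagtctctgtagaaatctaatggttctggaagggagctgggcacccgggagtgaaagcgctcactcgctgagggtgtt

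Of 18 tested osteoblast and bone matrix genes, 1 was separated, where 2.01% of all genes were. In that list 7 were called higher, among them the mineralisation genes Alpl (0.32), Phex (0.41) and Smpd3 (0.39), and 1 lower, with a median of 0.035. That one, Enpp1, which makes the mineralisation inhibitor pyrophosphate, was the separated member, with 1512, 2065 and 2185 in F344 and LEW, against 2917, 3504 and 4766 in COP and DA, a difference of -0.89 (SE 0.07, limma adjusted p = 8.7e-09). Its sides were apart, with COP above DA by 0.46. With strain as a random block, Enpp1 was the one member called. The abundant matrix genes Col1a1, Col1a2, Bglap, Spp1 and Sparc had differences between -0.058 and -0.014, and none was called. Of 9 osteocyte and phosphate genes 4 were higher and 1 lower, of 18 growth plate genes 2 were higher and 0 lower, and of 12 osteoclast genes 1 was higher and 0 lower. None of these was called with strain as a random block. The contrast of pair means called 44.4% of the osteoblast list, against 17.3% of all tested genes. For the osteocyte, growth plate and osteoclast lists it called 55.6%, 11.1% and 8.33%.

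Among pathways that act on bone, the Wnt list had 2 of 32 genes called higher and 3 lower, both separated members being lower. Lrp6, a Wnt co-receptor encoded on chromosome 4, had 471, 539 and 626 in F344 and LEW, against 724, 897 and 1047 in COP and DA, a difference of -0.72 (SE 0.086, limma adjusted p = 3.65e-06). Sfrp1, a secreted Wnt antagonist, had 518, 700.0 and 762 in F344 and LEW, against 787, 896 and 1028 in COP and DA, a difference of -0.45 (limma adjusted p = 0.0004 in the contrast of pair means). Sfrp1 was no longer called with strain as a random block (limma adjusted p = 0.0626). Of 42 genes of BMP and TGF-beta signalling 1 was higher and 4 lower, and of 23 of the insulin-like growth factor axis 4 were higher and 2 lower. Of 33 matrix proteases and inhibitors 6 were higher and 4 lower, where the separated ones were Mmp8 and Adam8, a membrane protease of leukocytes and osteoclasts (-0.69). Mmp8, Adam8 and Lrp6 were still called with strain as a random block, and no other gene of these 4 lists was. In the order above, the contrast of pair means called 15.6%, 11.9%, 26.1% and 30.3% of the 4 lists, against 17.3% of all tested genes.

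Detoxification genes held separated members in both directions. Of 35 genes of glutathione and xenobiotic metabolism 7 were called higher and 7 lower, with a median of 0.033 (7 and 4 under median centring of the arrays, and 3 and 0 with strain as a random block). In the contrast of pair means this called share was above the 17.3% of all tested genes. Separated and called were 2.01% of all tested genes. Besides Ephx2, Gsto1, a glutathione transferase of the omega class, was separated, with 5046, 5625 and 5867 in F344 and LEW, against 3604, 3924 and 4841 in COP and DA, a difference of 0.46 (SE 0.054, limma adjusted p = 3.11e-06). Nqo1, a quinone reductase, was lower by a difference of -0.33 in the contrast of pair means and not called with strain as a random block (limma adjusted p = 0.0571).

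Lists of muscle, fat and the general machinery of the cell held 0 separated genes, where 2.01% of all tested genes were separated and called. For the called counts below, the shares over all tested genes were 7.71% higher and 9.63% lower. Of 37 skeletal muscle genes 5 were higher and 0 lower with a median of 0.12, and of 23 adipocyte genes 4 were higher and 1 lower. Of 45 cell cycle genes 2 were higher and 9 lower with a median of -0.049, while of 32 ribosomal protein genes 1 was lower. The contrast of pair means called 13.5% of the muscle, 21.7% of the adipocyte, 24.4% of the cell cycle and 3.12% of the ribosomal list. Of all tested genes it called 17.3%. None of 54 oxidative phosphorylation genes was called by limma (1 under quantile normalization), 5 had an unadjusted p under 0.05, and the median was 0.042. Of 20 endothelial genes 3 were higher and 2 lower, with Cldn5 separated, and of 25 immediate early and heat shock genes 3 were higher and 1 lower. Cldn5 was the one gene of all these lists still called with strain as a random block.

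Chromosome 4, which carries the locus of the F344 and LEW cross, had 15 separated genes among 606 tested (2.48%), against 2.01% of all genes, 5 of them higher and 10 lower in F344 and LEW. Dnajb6, a chaperone of the Hsp40 family, had, after Art4, the next largest difference among the 8 genes named there, with 4018, 5616 and 7635 in F344 and LEW, against 1998, 2469.5 and 2974 in COP and DA, a difference of 1.16 (SE 0.053, limma adjusted p = 1.48e-12). LEW was above F344 in it by 0.78 on the log2 scale. Malsu1, which takes part in assembly of the mitochondrial ribosome, was higher by 0.31. Lower were Klra4, a lectin-like receptor of natural killer cells (-1.02), Ica1, a membrane-bending protein of secretory vesicles (-0.63), Clec12a, an inhibitory lectin of myeloid cells (-0.55), and the interleukin 17 receptor Il17ra (-0.48). Il17ra had 2553, 2735 and 3232 in F344 and LEW, against 3669, 3948 and 4304 in COP and DA. Since the locus was found between F344 and LEW, genes in which these strains lie together do not bear on it directly, and Klra4 and Dnajb6 were the ones among these 8 in which F344 and LEW differed (limma adjusted p = 0.00925 and 1.9e-07).

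**Figure D5:**
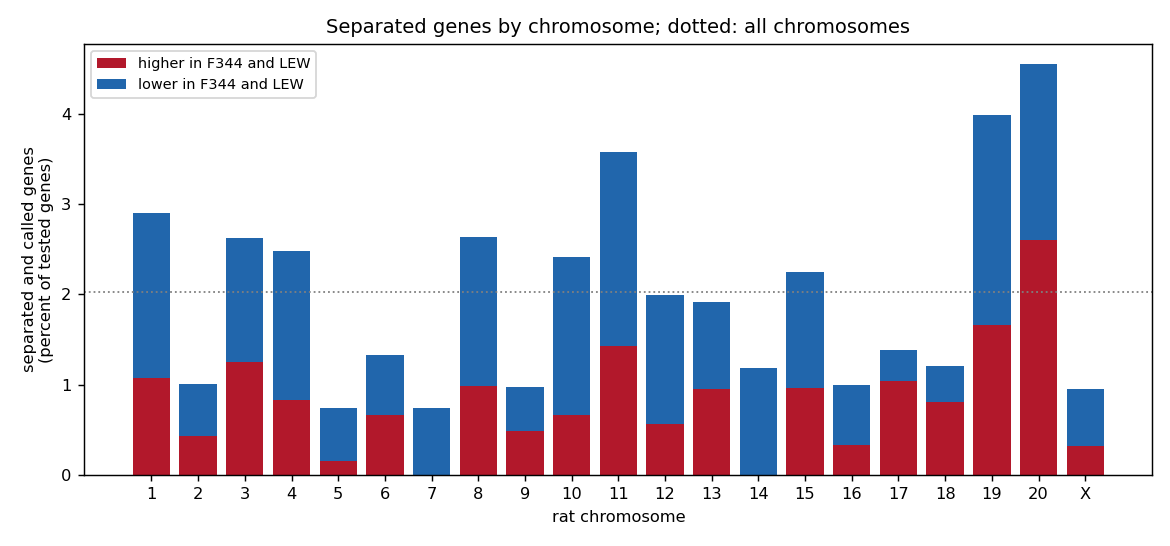
Percent of the tested genes of each rat chromosome that were separated and called, split into those higher and those lower in F344 and LEW; the dotted line is the share over all chromosomes. Chromosome 20 stands at 4.55%, chromosome 4 at 2.48% and chromosome 7 at 0.736%.

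By chromosome the share was highest on chromosome 20 (14 of 308, 4.55%), chromosome 19 (12 of 301, 3.99%) and chromosome 11 (10 of 280, 3.57%), and lowest on chromosomes 7 and 5 (0.736% and 0.743%), leaving out Y, of which 1 gene was tested and 0 separated. Of 422 places next to a separated gene among tested genes, 18 (4.27%) held another separated gene, against 2.02% of all genes with a chromosome. Of those 18, 10 had the same direction. Runs of separated genes at most 3 places apart numbered 21 and held 47 genes, with no background computed for such runs. Besides the group on chromosome 20, a run on chromosome 3 held C3h15orf48, Bloc1s6 and Sqor, a mitochondrial enzyme that oxidises sulphide, all lower in F344 and LEW, by differences of -0.92, -0.56 and -1.08. In Sqor COP was higher than DA (0.46, limma adjusted p = 0.000969). A run on chromosome 4 held the lectin receptor genes Clec12a, Clec7a and Klra4, also all lower (-0.55, -0.39 and -1.02). The run on chromosome 12 held Kdelr2, which was higher, and Zdhhc4 and Zfp316, which were lower. The genes of these runs were chosen after their values were seen.

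Probe sets of one gene gave unequal answers. Of the 212 genes, 52 had another tested probe set, 70 in all. Of these 70, 53 had the same sign (75.7%), 20 were called the same way (28.6%) and 7 were separated the same way, while 4 were called and 2 of them separated the opposite way. Among all genes' further probe sets, 14.2% were called and 1.14% separated. Conversely, some genes were separated in a dimmer probe set alone, and these genes were chosen after their values were seen. Ctdspl, a small phosphatase, had 9.58, 97.4 and 133 in F344 and LEW, against 537, 669.7 and 804 in COP and DA in one probe set, a difference of -3.22 (limma adjusted p = 1.1e-06), but 0.02 in its brightest one. Elavl1, which binds AU-rich messenger RNA, differed by 1.57 in one probe set and by -0.12 in its brightest one. RT1-Db1, a class II beta chain, differed by 3.05 in a separated probe set and by 0.60 in its brightest one, which overlapped. The probe sequences were not used here, so the part of each strain's sequence in these differences was not tested.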

How the data were processed

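Proximal femur RNA of 4 strains was measured on 16 arrays, with biotin-labelled cRNA made from 5 ug of total RNA, per the labels' protocols. The authors deposited linear intensity values, 1 for each probe set on each array, from MAS5 according to the submitters' processing notes; scaling target and detection calls are not given in the sources used here. Of 31099 probe sets, 57 controls were left out, and 20826 of the 31042 others had 1 gene symbol, 436 several and 9780 none, by the platform's annotation. Identifiers of 20758 matched a RefSeq gene table (GRCr8), which changed 0 symbols and gave the chromosome and the order of genes.

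Signals under 1 were set to 1 (255 values) and log2 was taken. The filter kept probe sets whose mean exceeded a signal of 174, the 40th percentile. A mean for each strain was fitted with limma 3.58.1 (R 4.3.3; 12 residual degrees of freedom) with an intensity trend, and the contrast was the mean of F344 and LEW minus the mean of COP and DA. P-values were adjusted by the Benjamini-Hochberg method over all 18625 kept probe sets; calls needed an adjusted p under 0.05. The brightest kept probe set stood for its gene. The fit was tested on simulated data. These held no strain effects beyond the difference of sides, so the test does not cover spread between strains.

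Genes were named by a rule: separated, called and with 1 symbol, ranked by the narrowest of the 4 differences of strain means across the sides; 14 higher, 14 lower, 8 on chromosome 4 and up to 4 per list were taken, which gave 51 genes, 1 of which is not reported here. Other genes named were chosen after their values were seen. The 25 gene lists hold 794 genes; 666 were on the array by name and 604 were bright enough to test. The comparison, its members and the lists were chosen with earlier results of these data known. Promoter sequences were found for 38 of the 51 named genes.

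Alternatives were quantile normalization, median centring, a pseudocount of 19.3, a filter at the 60th percentile or none, array weights, no intensity trend, strain as a random block, a block for the replicate number, robust moderation, a fit of the sides without strain, an adjusted p under 0.10, a gap of at least 0.25, averaging the probe sets of a gene, and leaving out each array. Strain means as the samples were added after the data were seen. Figures were drawn with matplotlib 3.10.9.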

Additional observations from a re-analysis of the deposited data

Results flagged for a closer look

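An array lay far from the other 3 of its strain, by more than Dixon's critical value allows, in 17 of 288 sets of 4 arrays (5.9%) of the 72 genes described; chance alone gives about 1 set in 20. The signal of the array and the range of the other 3 were as follows for Clec12a in LEW replicate 4 (1346, below 1624 to 1688), Cma1 in LEW replicate 1 (1837, above 1172 to 1262), Epx in F344 replicate 4 (5633, below 5993 to 6059) and Epx in COP replicate 1 (14671, below 17283 to 17725). The same was found for Fcgr2b in COP replicate 1 (1154, below 1309 to 1333), Glrx2 in LEW replicate 3 (5779.9, above 5428 to 5447), Hpgds in LEW replicate 4 (774, below 981 to 1029) and Il17ra in F344 replicate 3 (2557, below 2716 to 2739.9). Arrays also stood apart for Il17ra in LEW replicate 4 (2553, below 3184 to 3232), Il17ra in DA replicate 2 (4304, above 3669 to 3738), Kat6b in DA replicate 3 (1231, below 1491 to 1509), Malsu1 in COP replicate 2 (2241, below 2347 to 2367) and Nqo1 in COP replicate 4 (1464, above 1277 to 1304). The rest were RT1-DMb in DA replicate 1 (1047, below 1708 to 1824), Sqor in LEW replicate 3 (1704, above 1391 to 1439.8), Srsf3 in DA replicate 1 (834, below 1217 to 1291) and Tubb1 in DA replicate 3 (3676, above 2994 to 3012). Each of these genes was described because it was separated, so by construction its sides did not overlap, these arrays included.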

How the results depend on the processing

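The 355 separated probe sets, the 3149 called and the 212 genes stayed within 1.5 times their count under quantile normalization, median centring (193 genes, of which 178 were among the 212), the pseudocount, no filter, the filter at the 60th percentile, the fits without trend, with robust moderation and with array weights, and an adjusted p under 0.10. Averaging the probe sets of a gene gave 209 genes, of which 178 were among the 212; its 1820 calls are of 10548 genes, not of probe sets. Median centring put 50.8% of the calls on the higher side, against 44.6% without it. With strain as a random block 389 probe sets were called, 159 higher and 230 lower. A fit of the sides without a strain term called 1496, 626 higher and 870 lower. Requiring a gap of at least 0.25 left 102 probe sets and 46 genes, 18 higher and 28 lower. With strain means as the samples 14 probe sets were called, 10 higher and 4 lower, which left 5 genes, 4 higher and 1 lower; 1063 probe sets had an unadjusted p under 0.05, and 46 of the 51 named genes were not called. The cause of these lower counts was not tested; by construction, strain means leave 4 samples and a wider gap admits fewer genes. Leaving out each array gave 376 to 453 separated probe sets, 2735 to 3196 called, 1194 to 1405 higher and 1541 to 1791 lower, and 221 to 273 genes, 84 to 105 higher and 137 to 178 lower; the highest count of genes came without DA replicate 1. By construction, leaving out an array can only keep or add separated probe sets. All 51 named genes kept their direction and call when each array was left out. Replicate numbers gave no pairing: deviations of same-numbered arrays correlated by -0.173 to 0.0875 in 24 pairs, 0 of them over 0.1. The replicate block called 3026 probe sets, 1341 higher and 1685 lower, and left 212 genes. The 355 separated probe sets do not depend on the fit or the p threshold, so no change of fit could alter them. No direction of a named gene reversed under any alternative. Dim probe sets carry more noise, and genes such as Clec3b lay below the filter's signal of 174 on one side, so their folds there are imprecise.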

Other observations

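Beyond the named genes, separated genes included further products of leukocytes, chosen here after their values were seen. Ccl6, a chemokine of rodent myeloid cells, had 1799, 1956 and 2510.2 (lowest, median, highest) in F344 and LEW, against 2898, 4449 and 5420.1 in COP and DA, a difference of -1.08 (SE 0.065, limma adjusted p = 1.15e-10). COP was higher than DA in Ccl6 (0.62, limma adjusted p = 7.54e-05). Lilrb2, an inhibitory receptor of the leukocyte immunoglobulin-like family, had 435, 596 and 761 in F344 and LEW, against 849, 1390.4 and 1954 in COP and DA, a difference of -1.15, with DA above COP by 1.05 on the log2 scale. Il6r, the interleukin 6 receptor, differed by -0.77, the peptidoglycan-binding neutrophil protein Pglyrp1 by -0.56, and complement C3 by -0.51. By the rule that chose them, the sides were apart on every array for each of these genes.

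Genes of lipid mediators lay on both sides. Alox15, a lipoxygenase that makes 12- and 15-hydroxy fatty acids, was higher, with 10640.1, 11493 and 13202 in F344 and LEW, against 4482, 6605 and 10261 in COP and DA, a difference of 0.81 (SE 0.057, limma adjusted p = 1.47e-09). DA lay above COP in it by 0.85 on the log2 scale. Alox5ap, which presents arachidonic acid to 5-lipoxygenase, was lower, with 2063, 2245 and 2397 in F344 and LEW, against 2436, 3288 and 3654 in COP and DA, a difference of -0.52 (limma adjusted p = 4.67e-07). Hpgds, a prostaglandin D synthase of mast cells and other leukocytes, was lower by a difference of -0.43. Papss2, which makes the sulphate donor needed for cartilage proteoglycans, was higher by 0.65 in its brighter probe set and had 0.14 in the other (limma adjusted p = 0.568).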
